A study of Arabidopsis thaliana with 12 samples.

Results

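Ribosomal protein genes were taken as the protein-coding genes whose RefSeq TAIR10.1 product contains the words ribosomal protein and none of kinase, methyltransferase, acetyltransferase, mitochondri, chloroplast or plastid. The rule found 328 members among the 27444 protein-coding genes of the 5 nuclear chromosomes. Of 344 genes with the words in a product, 16 were dropped by the excluded words. The product, symbol, coding-sequence notes and protein similarity placed 194 members in the cytosolic ribosome, 85 in its 40S subunit and 109 in its 60S subunit. Another 90 were of bacterial type, the kind found in plastid and mitochondrial ribosomes, although their product text names neither organelle. The last 44 were placed in neither class, among them the elongation factor LOS1, assembly factors and proteins that share a domain name. Some of these have a subunit name in the product, such as AT1G57540 (40S) and AT1G29040 (50S).

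The cytosolic ribosome of plants is built from ribosomal RNA and a set of proteins that enter the small 40S or the large 60S subunit. In Arabidopsis nearly every such protein is encoded by several paralogous genes, and mutants of single paralogues often have pointed leaves, altered organ polarity or embryo lethality. Promoters of these genes are known for the telo-box, a short element named after the telomere repeat, and for site II elements, to which TCP transcription factors bind.

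Open chromatin was mapped by ATAC-seq, which lets the transposase Tn5 cut accessible DNA, in nuclei from whole seedlings 10 days after germination. The 12 samples were 2 replicates each of WT (Col-0) and of 5 lines with mutations in Polycomb group genes, namely ring1ab, lhp1, emf1-2, clf28swn7 and bmi1abc. The mutants carry lesions in the H2A ubiquitin ligase genes BMI1 or RING1, in the H3K27 methyltransferase genes CLF and SWN, in EMF1 or in LHP1. The ring1ab line is a weak mutant and, like lhp1, still forms vegetative and floral organs. The shoots of bmi1abc, clf28swn7 and emf1-2 stay embryo-like, so whole seedlings of different genotypes do not hold the same tissues. The file used here was 1 merged list of 23226 Tn5 hypersensitive sites (THSs), regions called in both replicates of at least 1 genotype. The paper describes a smaller consensus set, kept after a filter on signal, so this longer list is not that set. It may hold weak regions that the paper left out, and their part in the shares was not tested. The list names no genotype and holds no signal or read count. The values therefore have no replicate error, no genotype could be compared, and a gene with no THS is only one with no region in this list. Intervals are 95% Wilson intervals over genes. They cover counting error only, and paralogues are not independent of each other.

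Ribosomal protein promoters that carried both elements inside a THS are printed first, because the position of the THS against these elements is described below. Of the 194 cytosolic members, 15 had a telo-box and a site II element inside a THS within 300 bp upstream of the transcription start site (TSS). The same count was not made over all protein-coding genes, so it serves only to choose sequences and does not set these members apart. At the 15 members, the gap between the elements was 4 to 36 bp, with a median of 13 bp. The 6 shown have the closest pairs among the 12 of them whose printed stretch overlapped no other annotated gene. Each is the 150 bp before the annotated TSS on TAIR10.1, 5′ to 3′ in the direction of the gene, so the TSS follows the last base. Capitals mark the telo-box (AAACCCTA) and site II elements (TGGGCC or TGGGCT) on either strand.
AT2G47570 chr2:19516923-19517072 minus strand: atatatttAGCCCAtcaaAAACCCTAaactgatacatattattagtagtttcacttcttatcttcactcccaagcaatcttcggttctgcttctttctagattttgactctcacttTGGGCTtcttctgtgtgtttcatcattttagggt
AT4G27090 chr4:13595253-13595402 minus strand: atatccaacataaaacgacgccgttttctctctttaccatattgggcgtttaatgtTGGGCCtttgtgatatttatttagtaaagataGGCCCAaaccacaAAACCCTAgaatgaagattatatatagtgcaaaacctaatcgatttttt
AT3G23390 chr3:8375183-8375332 plus strand: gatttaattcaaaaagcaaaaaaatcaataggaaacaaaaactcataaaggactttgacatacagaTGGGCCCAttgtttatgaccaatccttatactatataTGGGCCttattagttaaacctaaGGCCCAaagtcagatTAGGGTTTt
AT4G00810 chr4:347294-347443 minus strand: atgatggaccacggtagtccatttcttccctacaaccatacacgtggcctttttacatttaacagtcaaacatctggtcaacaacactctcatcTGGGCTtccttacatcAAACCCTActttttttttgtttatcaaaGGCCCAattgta
AT2G36160 chr2:15169668-15169817 plus strand: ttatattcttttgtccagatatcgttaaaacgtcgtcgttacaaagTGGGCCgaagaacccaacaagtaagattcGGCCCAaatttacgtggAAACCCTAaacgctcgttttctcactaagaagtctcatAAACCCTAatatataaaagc
AT4G13170 chr4:7656595-7656744 minus strand: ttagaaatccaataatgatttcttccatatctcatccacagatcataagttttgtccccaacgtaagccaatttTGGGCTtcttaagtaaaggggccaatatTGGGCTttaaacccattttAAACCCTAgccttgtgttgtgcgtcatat

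In AT2G47570, a 60S L18 gene, the pair lay at the far end of the stretch, with the telo-box centred at −128.5 bp and 4 bp between the elements. In the L14 gene AT4G27090 the gap was 7 bp, and all 150 bp lay inside a THS. AT3G23390 encodes a zinc-binding ribosomal protein of the 60S subunit and had its telo-box centred 5.5 bp before the TSS. AT4G00810 encodes an acidic protein of the 60S stalk. AT2G36160, whose product names the S11 family, had 2 telo-boxes and 2 site II elements within 150 bp, all inside 1 THS of 395 bp.

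The other 3 promoters, chosen after their values were seen, show that the letters and the listed regions did not always go together. RPS5A and RPS5B encode proteins of 94.7% identity. RPS5B had a THS of 390 bp over its TSS and none of the elements in these 150 bp, whereas RPS5A had a telo-box and 2 site II elements and no THS within the gene or its 1 kb upstream. EMB3010, which encodes the S6 protein, had 3 site II matches and no THS.
RPS5B AT2G37270 chr2:15649472-15649621 minus strand: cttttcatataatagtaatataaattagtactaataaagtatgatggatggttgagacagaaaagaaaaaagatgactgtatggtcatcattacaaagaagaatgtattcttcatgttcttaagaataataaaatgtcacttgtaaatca
RPS5A AT3G11940 chr3:3779546-3779695 minus strand: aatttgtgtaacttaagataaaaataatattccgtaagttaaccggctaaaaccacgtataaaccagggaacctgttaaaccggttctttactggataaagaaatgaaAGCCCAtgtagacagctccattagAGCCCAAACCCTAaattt
EMB3010 AT5G10360 chr5:3260255-3260404 minus strand: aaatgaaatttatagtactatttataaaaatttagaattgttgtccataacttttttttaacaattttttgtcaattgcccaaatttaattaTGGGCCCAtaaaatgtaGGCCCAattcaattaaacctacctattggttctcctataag

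A THS lay within the gene or its 1 kb upstream at 224 of the 328 members (68.3%, interval 63.1 to 73.1%), against 60.1% of all protein-coding genes. Over the TSS or its 1 kb upstream the share was 58.5% (192 of 328, interval 53.1 to 63.7%), against 47.6%. The wider gap was at the TSS itself. A THS covered the TSS of 151 members (46%, interval 40.7 to 51.4%), against 26.1% of all protein-coding genes. Within the gene body the shares were 58.2% of members and 44.3% of all. These shares are descriptions and were not tested. Members were shorter than genes in general, with a median annotated length of 1561 bp against 2078 bp.

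**Figure D1:**
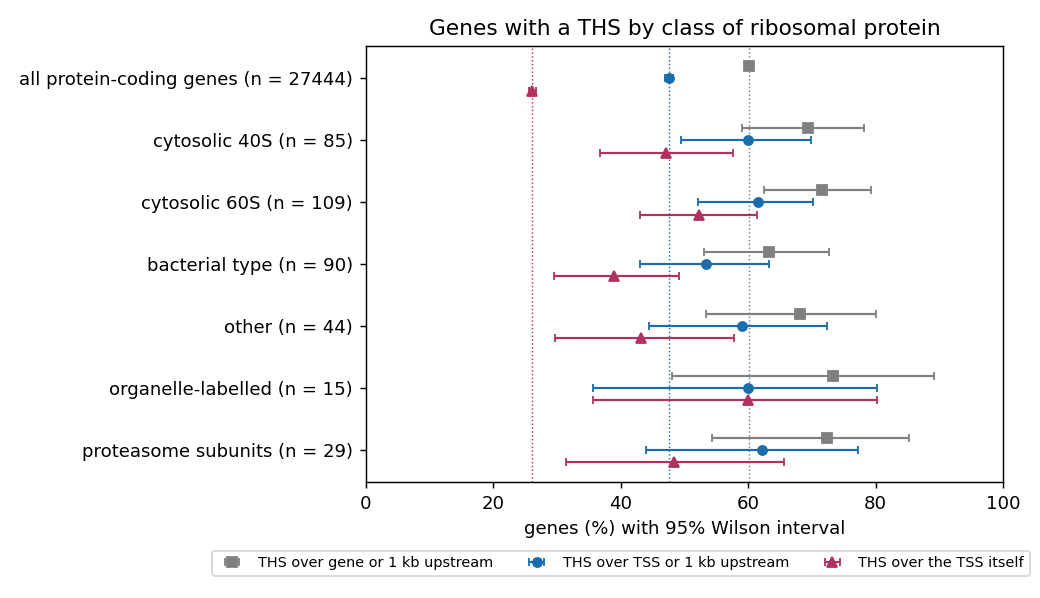
Percent of genes (x axis, with 95% Wilson intervals) that had a THS within the gene or its 1 kb upstream (squares), over the TSS or its 1 kb upstream (circles) or over the TSS itself (triangles), by gene class. Dotted lines mark the values of all protein-coding genes, and the intervals for TSS coverage of the 40S, 60S, bacterial-type and other members all lie above 26.1%.

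Cytosolic members had the highest share of covered TSSs among the 3 classes. It was 50.0% (97 of 194, interval 43.0 to 57.0%), with 47.1% for the 40S subunit and 52.3% for the 60S subunit. The intervals of the subunits overlapped. Among bacterial-type members 38.9% had a covered TSS (35 of 90, interval 29.5 to 49.2%), and among the other members 43.2% (19 of 44, interval 29.7 to 57.8%). All 3 intervals overlapped as well. Over the gene or its 1 kb upstream, a THS was listed at 70.6% of cytosolic, 63.3% of bacterial-type and 68.2% of the other members.

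Neighbouring gene sets gave values close to those of the members. Of the 15 ribosomal protein genes that the rule dropped because their product names an organelle, 9 had a covered TSS (60%, interval 35.7 to 80.2%). Of 29 genes for subunits of the proteasome, the protein-degrading complex, 14 had one (48.3%, interval 31.4 to 65.6%). Both intervals overlapped that of the members.

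By chromosome, members with a THS over the TSS or its 1 kb upstream ranged from 53.8% on chromosome 4 (21 of 39) to 64.9% on chromosome 1 (48 of 74). All protein-coding genes ranged from 44.4% on chromosome 2 to 48.5% on chromosome 3. Cytosolic members ranged from 55% on chromosome 5 (22 of 40) to 72.2% on chromosome 2 (26 of 36). All members on chromosome 2 stood at 59.3% (32 of 54). The bacterial-type members AT2G07675, AT2G07696 and AT2G07734 lie between 3.2 and 3.6 Mb of chromosome 2, in a stretch that resembles the mitochondrial genome. No THS was listed at any of them.

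Members had few THSs each. No THS was listed at 104, 1 at 174, 2 at 43 and 3 or more at 7 members. The share with 2 or more was 15.2%, against 18.8% of all protein-coding genes. LOS1, an elongation factor gene, had 4, of which 1 of 264 bp covered the TSS and 3 lay over coding sequence between 1999 and 3471 bp downstream. The bacterial-type gene RPL4 had 3, and the one over its TSS was 272 bp long. RP1 (also RPL3A), the gene of the 60S protein L3, had 3 THSs of 352, 127 and 108 bp, all over coding sequence and none at its TSS or 1 kb upstream. AT2G36160 and AT2G44120, whose products name the S11 and L30/L7 families, had 3 each. At both, 1 THS covered the TSS. AT3G13120 and AT5G66860 also had 3, so 6 members were level behind LOS1.

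The 281 distinct THSs at members had a median length of 250 bp (quartiles 174.5 and 389.5 bp), and those at all protein-coding genes 256 bp. The 5 longest at members were 1205 bp at AT4G23620, 1134 bp at AT1G77750, 1018 bp at RPS15, 960 bp at AT3G14595 and 846 bp at AT3G13120. Those at AT1G77750 and AT3G13120 were centred beyond the 3′ ends of the members. The other 3 covered the TSS of the member, and those at AT4G23620 and AT3G14595 also covered the TSS of a neighbour. The list holds fragments too: 100 of the 281 were under 200 bp, and the shortest was 24 bp, over coding sequence of AT2G36160.

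The position of the THSs differed from that at genes in general more than their length did. Among the 282 pairs of a member and its THS, 151 covered the TSS (53.5%), against 31.3% of the pairs at all protein-coding genes. The median midpoint lay 48.0 bp upstream of the TSS at members and 49.2 bp upstream at all genes, so the medians were alike. The spread was not. The middle 50% of midpoints ran from −150.9 to +168.4 bp at members and from −331.5 to +1065.0 bp at all genes. Pairs were counted over the whole gene, and members were shorter (median 1561 against 2078 bp). The part of gene length in this spread and in the shares of pairs was not tested. Of the pairs at members, 59.2% had the midpoint between −300 and +100 bp, against 37.5%. At cytosolic members this share was 62.8% and at bacterial-type members 52.8%.

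**Figure D2:**
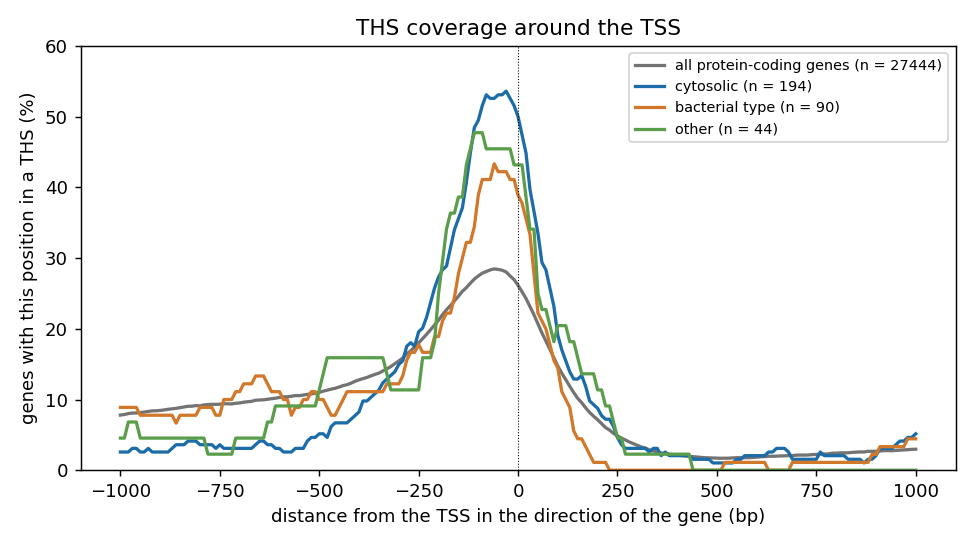
Percent of genes (y axis) with a given distance from the TSS (x axis, in bp, gene direction to the right) inside a THS, for the 3 classes of members and all protein-coding genes. The cytosolic curve peaks at 53.6% 46 bp upstream of the TSS, the curve of all genes at 28.5% 59 bp upstream, and 500 bp upstream the order is reversed (5.15% against 11%).

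The coverage profile peaked upstream of the TSS in each class. It reached 53.6% of cytosolic members 46 bp upstream, 43.3% of bacterial-type members 64 bp upstream and 47.7% of the other members 116 bp upstream. All protein-coding genes peaked at 28.5%, 59 bp upstream. At 500 bp upstream, cytosolic members were at 5.15% and all genes at 11%. At 1 kb upstream the values were 2.58% and 7.80%. Cytosolic members thus had more THSs than genes in general next to the TSS and fewer farther upstream, while bacterial-type members had 10.0% at 500 bp and 8.89% at 1 kb.

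Of the 172 pairs at cytosolic members, 51.2% had the midpoint within 300 bp upstream, 14.0% in the 5′ UTR, 12.2% in coding sequence, 4.07% in introns, 4.65% in the 3′ UTR and 8.72% farther upstream. The last share was 26.2% over all protein-coding genes and 25% at bacterial-type members. THSs that covered the TSS of a cytosolic member reached a median 166 bp upstream and 82 bp downstream of it. Over all protein-coding genes these medians were 207 and 95 bp.

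**Figure D3:**
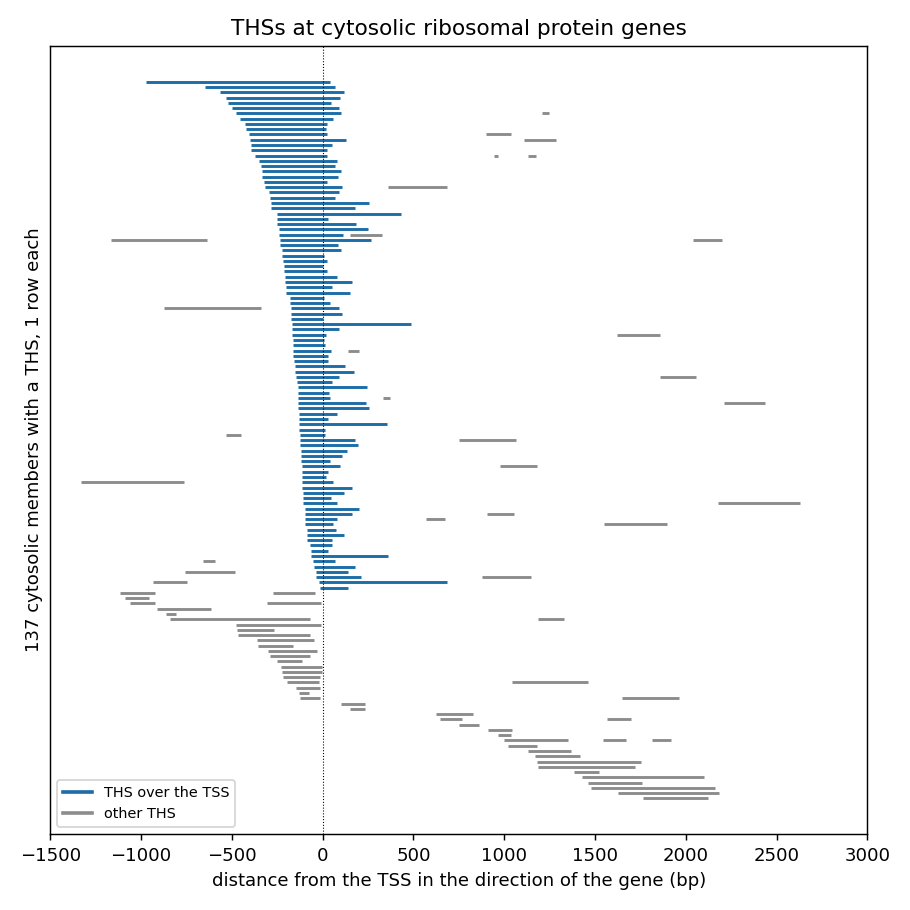
THSs at the 137 cytosolic members with a THS within the gene or its 1 kb upstream, 1 row per gene, drawn to scale against the distance from the TSS (x axis, in bp). Blue bars cover the TSS (97 genes), grey bars do not, and most grey bars lie either shortly before the TSS or over the distal part of the gene.

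Many of these regions were shared with a neighbouring gene, and the list does not say to which gene a shared THS belongs. Of the 282 pairs at members, 113 (40.1%) had a THS that also lay over the TSS or 1 kb upstream of another protein-coding gene, against 32.3% of the pairs at all genes. Of the 151 that covered a member's TSS, 36 (23.8%) covered another gene's TSS too, against 17.0%. Among cytosolic members 33.5% had a coding gene in the opposite direction whose TSS lay within 1 kb upstream, against 18.8% of all protein-coding genes. A THS covered the TSS of 55.4% of those 65 members and of 47.3% of the 129 with no such neighbour. Over all genes the same shares were 37.5 and 23.5%. One THS was common to a pair of members. It was centred in the 3′ UTR of AT2G19740, of the L31e family, and lay in the 1 kb upstream of AT2G19750, of the S30 family (chr2:8514427-8514631, 205 bp). It covered neither TSS.

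Paralogues of 1 protein were then compared with each other. By the family number in product or symbol, 153 cytosolic members fell into 47 groups of at least 2 genes. In 12 groups every gene had a THS over the TSS or its 1 kb upstream, in 4 none had, and in 31 only some had. Over all 194 cytosolic members the share was 60.8% (118 genes), against 47.6% of all protein-coding genes. How families would split at that share was not tested. A family number can bring unrelated proteins together, such as the 7 genes labelled L7Ae/L30e/S12e, which formed 3 families by sequence. Grouped instead by protein similarity (at least 60% identity over 70% of the longer protein), 181 members formed 65 families of 2 to 6 paralogues. Every paralogue had a THS in 19 families, some in 41 and none in 5. At least 1 paralogue had a THS in 60 of the 65.

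**Figure D4:**
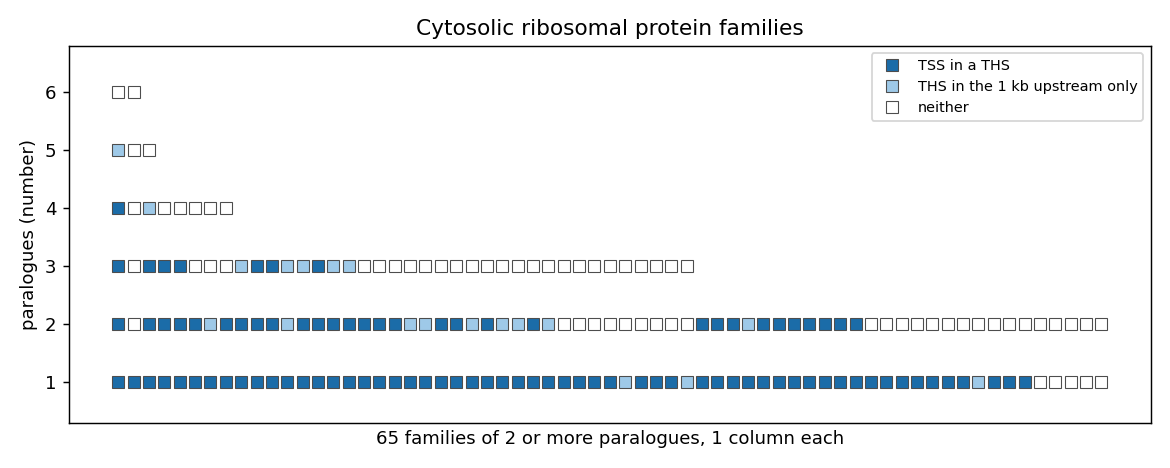
Cytosolic ribosomal protein families of 2 or more paralogues, 1 column per family and 1 square per paralogue (y axis, number of paralogues), ordered by size. Dark squares count paralogues whose TSS lay in a THS, light squares those with a THS only in the 1 kb upstream and white squares those with neither. Mixed columns make up 41 of the 65, beside a share of 60.8% of cytosolic members with a THS over the TSS or its 1 kb upstream.

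Of 27 families with 2 paralogues, 11 had a THS at both, 11 at 1 and 5 at neither. Of 30 families with 3 paralogues, 8 had a THS at all, 13 at 2, 9 at 1 and none at 0. The 19 complete families included the L10a-type protein of PGY1 (L1p/L10e), L5, L24, L4 and L14, and 3 families of the acidic stalk proteins. Others were S3Ae, S4 of the RPS4A type, S19e, S24e and S30. The families of AT2G37190 and AT2G36160, whose products read L11 and S11, were complete too. All these names follow the product or symbol and were not checked against the numbering of cytosolic ribosomal proteins. The 5 families with none were SAC52 with AT1G26910 (L16p/L10e), rps15ab with AT4G29430, the acidic proteins AT3G28500 and AT5G40040, the L32e genes AT4G18100 and AT5G46430, and the S6 genes RPS6 and EMB3010. Near-identical proteins could differ in state. The 3 L14p/L23e genes encode proteins of 100% identity, and AT1G04480 had a THS over its TSS while AT2G33370 and emb2171 had none, neither within the gene nor in the 1 kb before it.

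The largest families lay at opposite ends. In the S15 family 1 of 6 paralogues had a THS. This was RPS15 on chromosome 1, with the 1018-bp region. The 5 without were all on chromosome 5, with AT5G09490, AT5G09500 and AT5G09510 in tandem. In the family of XW6, whose product reads ribosomal protein S5 family, 5 of 6 had one. Of these, AT1G58684, AT1G58983 and AT1G59359 are near-identical copies on chromosome 1. Every 32-bp word of their promoter windows occurs again in the nuclear genome. Longer words were not examined. Their THSs at the promoter were 186, 206 and 176 bp long. AT2G41840 (540 bp) and AT3G57490 (270 bp) had a covered TSS and no repeated word in the window, and XW6 itself, also without repeats, had no THS. Over all members, 7 windows had at least 50% repeated words, and all 7 had a THS over the TSS or 1 kb upstream. That share was 58.5% over all members and 47.6% over all protein-coding genes. AT1G58684, AT1G58983 and AT1G59359 were among the 7, as were PGY2 and its neighbour AT1G33120, of the L6 family. The 7 are therefore not separate cases. How reads of such copies were placed was not tested.

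Among the 19 members named for their mutants or for their paralogy with them, 12 had a THS over the TSS or its 1 kb upstream (63.2%, beside 58.5% of all members and 47.6% of all protein-coding genes). At all 12 it covered the TSS, which a THS did at 46% of members and 26.1% of all genes. These were the polarity genes PGY1 (156 bp), PGY2 (432 bp) and ATL5, which is PGY3 (185 bp), with RPL5B (512 bp); STV1 (431 bp), which acts in gynoecium patterning, and its paralogue RPL24A (415 bp); RPS13A (also PFL2, 460 bp), RPS5B, RPL23AA (424 bp), the L4 genes AT3G09630 (171 bp) and AT5G02870 (631 bp), and AT1G70600 (354 bp). The regions over the TSSs of STV1, RPL23AA and AT1G70600 also covered the TSS of a neighbouring gene. That of RPS5B also lay in the 1 kb upstream of a neighbour. The ATL5 region reached from 107 bp upstream to 77 bp downstream, and that of PGY1 from 15 bp upstream to 140 bp downstream. The 7 without were PFL (pointed first leaves), SAC52, RPS5A, RPS6, EMB3010, RPL23AB and RP1. Of these, PFL, RPS5A and EMB3010 had no THS at all. SAC52 had 1 of 123 bp over coding sequence and 1 of 132 bp at its 3′ end. RPS6 and RPL23AB each had a THS at the 3′ end only, of 357 and 571 bp, and each of these also lay over the TSS or 1 kb upstream of a neighbouring gene.

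Among bacterial-type members, 7 carry an EMB symbol, given to genes whose mutants arrest as embryos. A THS covered the TSS of emb2394, EMB3113, EMB3126 and EMB3137 (57.1%, beside 38.9% of bacterial-type members and 26.1% of all protein-coding genes). At emb2184 one lay in the 1 kb upstream and did not cover the TSS. Over the TSS or its 1 kb upstream, 5 of the 7 thus had a THS (71.4%, beside 53.3 and 47.6%). No THS was listed at emb1473 or EMB3136. Other bacterial-type members were chosen after their values were seen. GHS1, RPS1, RPS9 and SSR16 had a covered TSS, and RPS10 had no THS. HLL, named for its ovule phenotype, had one in the 1 kb upstream that did not cover the TSS. Neither RFC3 nor NFD1 had a THS within the gene or its 1 kb upstream. Of RPL12-A, RPL12-B and RPL12-C, which lie together on chromosome 3, RPL12-A and RPL12-C had a covered TSS and RPL12-B had no THS.

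Of 22 other genes of ribosome function, AT2G36170, which encodes L40, and AT1G23410, which encodes S27a, each fused to ubiquitin, are members themselves. Of the other 20, 15 had a THS over the TSS or its 1 kb upstream (75%, beside 58.5% of members and 47.6% of all protein-coding genes) and 11 a covered TSS (55%, beside 46% and 26.1%). The nucleolar genes NUC-L1 and NUC-L2, FIB1 and FIB2, which act in ribosomal RNA processing, all had a covered TSS. FIB2 had the longest of these regions. It was 1208 bp long and reached 21 bp downstream of the TSS. The assembly factor genes AT4G31420 (REIL1) and FZF (REIL2) and the S6 kinase genes PK1 and S6K2 had one as well. The kinase gene TOR and its partner gene LST8-1 had no THS, and RAPTOR1 and the stress regulator NAC082 had one only inside the gene. TCP20, whose protein binds site II elements, had 2 upstream THSs, neither of which reached the TSS.

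The promoter elements were counted from 250 bp before to 50 bp after the TSS, on both strands. A site II run that reads the same on both strands counts once per strand, and the elements may overlap. A telo-box or a site II element was found at 236 members (72.0%), against 25.7% of all protein-coding genes. The telo-box was at 37.5% of members (123 of 328), against 6.22%, and a site II element at 64.6% (212 of 328), against 21.7%. Both were present at 30.2% of members, against 2.20%. At least 2 site II matches were present at 54.9%, against 13.7%. Within the members, the cytosolic class carried most of this. Its shares were 51.5% for the telo-box and 76.8% for site II, and those of the bacterial-type class 13.3 and 47.8%. The proteasome genes had site II elements at 58.6% (17 of 29) but a telo-box at 1 gene only. A match describes letters and does not show that a factor binds.

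**Figure D5:**
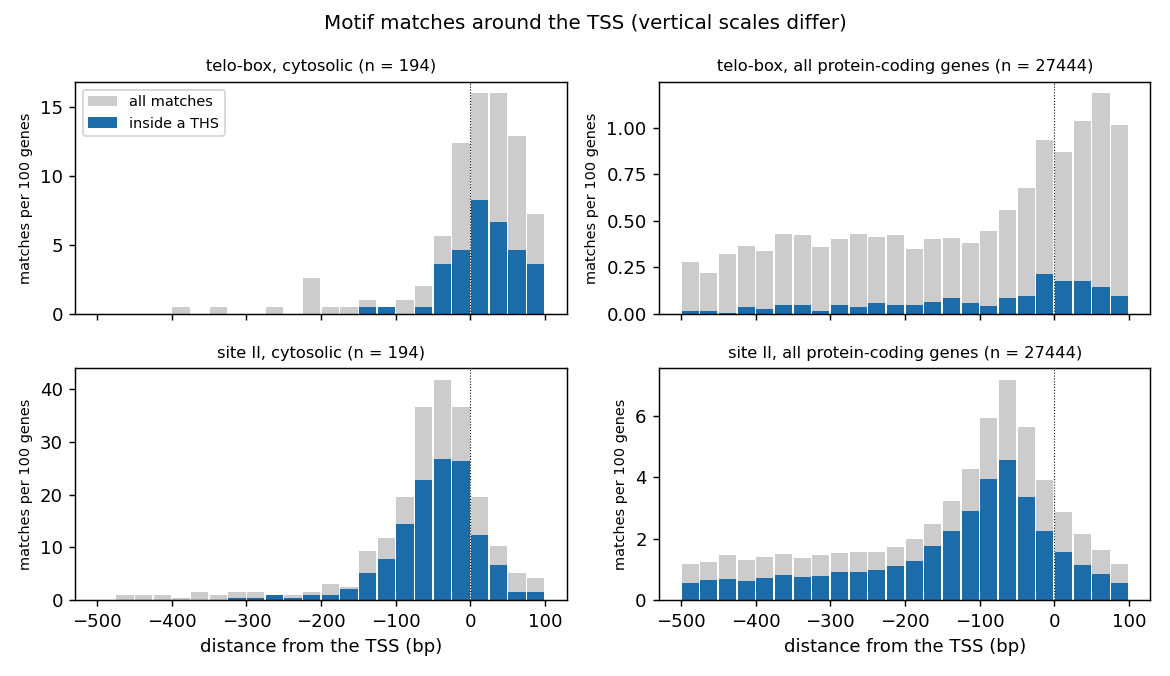
Telo-box and site II matches per 100 genes (y axis, scales differ between panels) in bins of 25 bp by distance from the TSS (x axis, in bp), for cytosolic members and all protein-coding genes. Grey bars give all matches and blue bars those inside a THS. At cytosolic members site II matches peak at 41.8 per 100 genes between −50 and −25 bp, 52 of 81 of them inside a THS. Over all genes 925 of 1549 in that bin lie inside a THS. Telo-boxes peak after the TSS in both sets.

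The elements differed in position. Site II matches at cytosolic members were most frequent between 50 and 25 bp before the TSS, with 81 matches, of which 52 lay inside a THS. Over all protein-coding genes that bin had 925 of 1549 matches inside a THS, and site II peaked between −75 and −50 bp. Telo-boxes of cytosolic members were most frequent in the first 50 bp after the TSS. Both bins of 25 bp there had 31 matches, of which 16 in the nearer and 13 in the farther bin lay inside a THS. Over all genes these bins had 49 of 238 and 48 of 284 inside a THS. Telo-boxes of all genes also peaked after the TSS, between 50 and 75 bp. Within the 1 kb upstream, 86.1% of site II matches at cytosolic members lay in the last 250 bp, against 49.2% over all protein-coding genes.

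Of all 625 matches in the 1 kb upstream of members, 327 (52.3%) lay inside a THS, against 47.6% over all protein-coding genes. THSs covered 14.8% of the upstream bases of members and 14.3% of those of all genes. Inside a THS lay 57.3% of the site II matches of members (306 of 534) and 23.1% of their telo-boxes (21 of 91), against 54.9 and 10.3% over all genes. These shares leave out the first 100 bp after the TSS, which held 101 telo-boxes of cytosolic members, 45 of them inside a THS (44.6%, against 14.6% over all genes), and 76 site II matches, 43 of them inside one (56.6%, against 52.5%). Matches sit close to the TSS, where THSs are frequent, and the part of position in these shares was not tested.

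THSs were also counted by which elements the promoter held. Of cytosolic members with both, 67.9% had a THS over the TSS or its 1 kb upstream (57 of 84). With site II alone the share was 64.6% (42 of 65), with the telo-box alone 43.8% (7 of 16) and with neither 41.4% (12 of 29). Over all protein-coding genes the shares were 62.6% with both, 69.5% with site II alone, 32% with the telo-box alone and 42.2% with neither. Bacterial-type members with site II alone stood at 68.6% (24 of 35) and those with neither at 39.5% (17 of 43), while the few with both stood at 50% (4 of 8) and with the telo-box alone at 75% (3 of 4). The TSS was covered at 52.4% of cytosolic members with both, 56.9% with site II alone, 25% with telo-box alone and 41.4% with neither. Over all protein-coding genes TSS coverage was 40.5, 49.3, 13.1 and 20.3% in the same order. These are counts from 1 list and were not tested.

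Small nucleolar RNA genes, which guide the modification of ribosomal RNA, lie inside some of the members. The annotation placed 14 of them within 9 members, of which 8 were cytosolic. Of the 9, AT1G04480, AT1G27400, RPL34 and AT4G17390 had a THS over the TSS or its 1 kb upstream (44.4%, beside 58.5% of all members and 47.6% of all protein-coding genes).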

How the data were processed

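The members, gene lists and classes were chosen with earlier results of these data known. ATAC-seq libraries of the 12 samples (WT and 5 mutants, 2 replicates each) were processed by the authors. Per their methods and the processing notes, reads were trimmed (Trimmomatic), mapped with Bowtie to TAIR10 without organelle genomes, freed of duplicates (Picard) and of regions with excessive coverage, and peaks were called per replicate with MACS2 (extension 200 bp, q 0.05), intersected between replicates and merged over genotypes. Such a merge keeps a region open in any 1 genotype, and intersecting can leave short pieces. The deposited values are coordinates in bp in 3 columns (chromosome, start, end), with no signal, so the depth behind a region is unknown. The authors' supplementary tables were not used. Some items are not reported here.

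Regions were placed on the RefSeq TAIR10.1 annotation and counted from 1. The TSS was the outer 5′ end of the gene record, and an overlap of 1 bp counted. Proteins were translated from the longest coding sequence with Biopython 1.88 and compared with blastp 2.17.0. Scripts ran in Python 3.11.15 and overlap counts were tested on simulated regions. Product and symbol alone placed 115 members in the cytosolic ribosome, so coding-sequence notes and similarity were added, as was the grouping by sequence, after the annotation was seen. Genes were named from a fixed list of mutants and paralogues and from the extremes (the 5 members with the most THSs, ties taken by position, the 5 longest THSs, complete and empty families, the chromosome 2 stretch, the closest element pairs). Others were chosen after their values were seen. Shares were set beside those of all protein-coding genes, and no test was made. RPL3B, AT2G19730, AT2G43460 and AT3G59540 of the fixed list are not members, because their product text differs. Alternatives were region length (200 bp), merging (150 bp), overlap (50 bp), upstream limits (500 bp, 2 kb), gene body, other TSSs, motif letters and windows, and leaving out members or chromosomes.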

Additional observations from a re-analysis of the deposited data

How the results depend on the processing

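No paired analysis was possible because the list merges all samples and no test was made. Of 77 recomputed values of the 8 results, 64 stayed within the 95% interval of the value reported (within 1.5 times for the count of families). With regions of at least 200 bp only, a THS lay over the gene or its 1 kb upstream at 50.3% of members (45.9% of all protein-coding genes) and over the TSS or its 1 kb upstream at 41.8% (36.8%), the median length was 326 bp, 60.4% of pairs covered the TSS (37.8%), and 38.2% of motif matches lay in a THS. With an upstream limit of 2 kb the shares were 73.5% (67.3%), 64.6% (57.4%) and, for motif matches, 45.6%. With 500 bp, 58.4% of motif matches lay in a THS. The gene body alone gave 58.2%. With the shorter site II core, 46.2% of matches lay in a THS. The shares of motif matches under these alternatives were not computed over all protein-coding genes. Counting only cytosolic members, a telo-box or site II element was at 85.2% of the 115 that product or symbol places there and at 85.1% of the 194 placed by all sources. Families in which only some paralogues had a THS numbered 31 of 47 by family number, 30 to 33 under the other region settings and 41 of 65 by protein similarity. Those in which every gene had one numbered 12, and 4 with regions of at least 200 bp or 15 with 2 kb. With regions of at least 200 bp the intervals of the members' first 2 shares (44.9 to 55.7% and 36.6 to 47.2%) included the shares of all protein-coding genes, while a THS covered the TSS of 33.5% of members and 20.9% of all.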
